A study of Mus musculus with 12 samples.

Results

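The 9 genes of the small leucine-rich proteoglycan (SLRP) family listed here were examined in cultured fibro-adipogenic progenitors (FAPs) of mouse limb muscle: Dcn, Bgn, Lum, Fmod, Ogn, Prelp, Omd, Aspn and Podn. They were taken by symbol, as a family chosen with earlier results of these data known, and 9 of 9 were found among the 55335 genes counted. FAPs are the mesenchymal cells between muscle fibres that can become fibroblasts or adipocytes. The 12 RNA-seq libraries fall into 4 groups of 3. Smn1OE_K186R cells received 4-hydroxytamoxifen (4-OHT, 1 µM) and a vector for human SMN with the K186R substitution. Smn1OE cells received 4-OHT and a vector for unchanged human SMN. Bap1KO cells received 4-OHT alone. WT cells received ethanol. The first 3 groups thus share 4-OHT and the intended loss of Bap1, a nuclear deubiquitinase. SMN, the survival of motor neuron protein, acts in assembly of spliceosomal ribonucleoproteins. The treatment text places the deletion under Rosa-CreER, whereas the source labels name Prrx1Cre;Bap1f/f mice, and no age is stated. No group carried an empty vector, SMN without 4-OHT, or 4-OHT without the deletion, so the parts of each treatment cannot be told apart. The labels do not say whether replicates came from separate mice, so p-values measure the spread between these libraries only.

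SLRPs are secreted proteins of the extracellular matrix whose core is a chain of leucine-rich repeats. Several carry chondroitin or dermatan sulfate chains and others keratan sulfate. They bind collagen fibrils and influence fibril diameter and spacing, and some bind growth factors such as TGF-β. In muscle they lie in the connective tissue around fibres, and FAPs and other fibroblasts are known sources. Decorin (Dcn), biglycan (Bgn) and asporin (Aspn) form class I. Lumican (Lum), fibromodulin (Fmod), prolargin (Prelp) and osteomodulin (Omd) form class II. Osteoglycin (Ogn) belongs to class III and podocan (Podn) to class V.

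The 12 libraries held 51.2 M to 68.2 M counts over genes. Bap1, counted over the whole gene, had 41.7 to 47.3 CPM (library-scaled counts per M counts) in Smn1OE_K186R and 47.5 to 50.04 CPM in Smn1OE. It had 42.3, 39.3 and 39.4 CPM in Bap1KO, against 49.7, 49.7 and 52.0 CPM in WT (log2 fold change -0.32, SE 0.07, edgeR adjusted p = 0.0139). Against WT, Bap1 was not called in Smn1OE_K186R (log2 -0.16, SE 0.07, adjusted p = 0.0767) or in Smn1OE (log2 -0.04, SE 0.07, adjusted p = 0.638), so this count does not show the labelled loss of Bap1 in the vector groups. Reads assigned to Smn1 came to 3688 to 5593 CPM in the 6 libraries with a vector and to 30.5 to 35.1 CPM in the other 6. The labels put a WT and a Bap1KO library into each of culture media batches A, B and C, and a library of each vector group into each of D, E and F. Xist, the non-coding RNA of the inactive X chromosome, had at most 0.113 CPM in the 6 vector libraries and 197 to 305 CPM in the Bap1KO and WT libraries. Y-linked Ddx3y, Eif2s3y, Kdm5d and Uty had 0 CPM in the Bap1KO and WT libraries and 11.1 to 69.7 CPM in the vector libraries. By these transcripts the vector cells were male and the others female, so they came from different mice. Vector, media batch and sex of the cells therefore cannot be told apart wherever a vector group is compared with Bap1KO or WT. FAP markers were present in part: 8 listed genes, among them Pdgfra and Ly6a, summed to 827 to 1078 CPM in Smn1OE_K186R, 671 to 1009 in Smn1OE, 1680 to 2294 in Bap1KO and 2385 to 2684 in WT. Ly6a, Thy1 and Cd248 made up most of each sum. Dpp4 had at most 0.183 CPM in any library, and Pi16 at most 0.283 CPM in the vector libraries.

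The sequence just upstream of the gene start is shown for the most abundant member, for the adjacent pair with the smallest adjusted p in Smn1OE against Bap1KO, and for the member called in Bap1KO. Each run is the 250 bases before the RefSeq start on GRCm38.p6, 5′ to 3′ on the gene's strand. Capitals mark matches on either strand to TATAAA (the core of a TATA box), to GGGCGG (the GC box), to CCAAT or to the AP-1 site TGANTCA.
Bgn, chrX:73483351-73483600, plus strand: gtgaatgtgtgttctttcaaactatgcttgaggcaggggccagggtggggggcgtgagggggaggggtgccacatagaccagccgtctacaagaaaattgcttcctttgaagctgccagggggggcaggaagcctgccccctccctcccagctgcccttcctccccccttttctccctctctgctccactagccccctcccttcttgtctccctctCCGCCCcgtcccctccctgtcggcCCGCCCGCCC
Prelp, chr1:133921402-133921651, minus strand: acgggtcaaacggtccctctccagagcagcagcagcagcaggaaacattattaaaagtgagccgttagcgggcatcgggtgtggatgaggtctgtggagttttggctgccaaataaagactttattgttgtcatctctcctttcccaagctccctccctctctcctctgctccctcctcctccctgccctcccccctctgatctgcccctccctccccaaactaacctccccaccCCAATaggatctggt
Fmod, chr1:134037004-134037253, plus strand: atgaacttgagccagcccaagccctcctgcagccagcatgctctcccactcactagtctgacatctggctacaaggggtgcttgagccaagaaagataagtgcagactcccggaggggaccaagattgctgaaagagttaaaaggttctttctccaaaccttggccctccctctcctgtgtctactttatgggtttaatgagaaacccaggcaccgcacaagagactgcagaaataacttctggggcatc
Ogn, chr13:49607765-49608014, plus strand: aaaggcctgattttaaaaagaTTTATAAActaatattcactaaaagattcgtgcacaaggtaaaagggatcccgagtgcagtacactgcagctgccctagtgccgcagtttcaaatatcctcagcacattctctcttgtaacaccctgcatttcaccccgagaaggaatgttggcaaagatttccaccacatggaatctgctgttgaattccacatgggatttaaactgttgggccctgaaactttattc

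Bgn held 3 GC boxes, of which 2 overlap. Such a box lay in 32.7% of the 32851 RefSeq windows of this length. Prelp held 1 CCAAT, a match that 33.8% of windows have. Ogn held TATAAA on both strands in 1 overlapping match far from the start, and 12.4% of windows hold TATAAA. Fmod held none of these 4 motifs, and no member's window held TGANTCA, found in 6.75% of all windows. The windows of Fmod and Prelp were 51.2 and 55.6% G or C, near the median of 52.4% over all windows. Those of Ogn, Omd and Aspn, which lie side by side on chromosome 13, were at 42.0, 38.4 and 30.0%. Podn has windows for 2 starts, at 78.0 and 64.0%. A window was found for 7 of the 9 members.

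Biglycan was by far the most abundant member in every library. Levels were compared between genes as CPM per kilobase of annotated exon. In WT, Bgn reached 1138 to 1246 CPM per kilobase and exceeded all other members in each library. Prelp followed with 195 to 290 CPM per kilobase, then Fmod with 62.8 to 116 and Dcn with 37.4 to 70.1, and the ranges of Fmod and Dcn overlapped. Aspn, Ogn, Podn and Lum lay between 1.13 and 7.35 CPM per kilobase, and each overlapped its neighbour in the order. Omd was last at 0.0619 to 0.162.

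**Figure D1:**
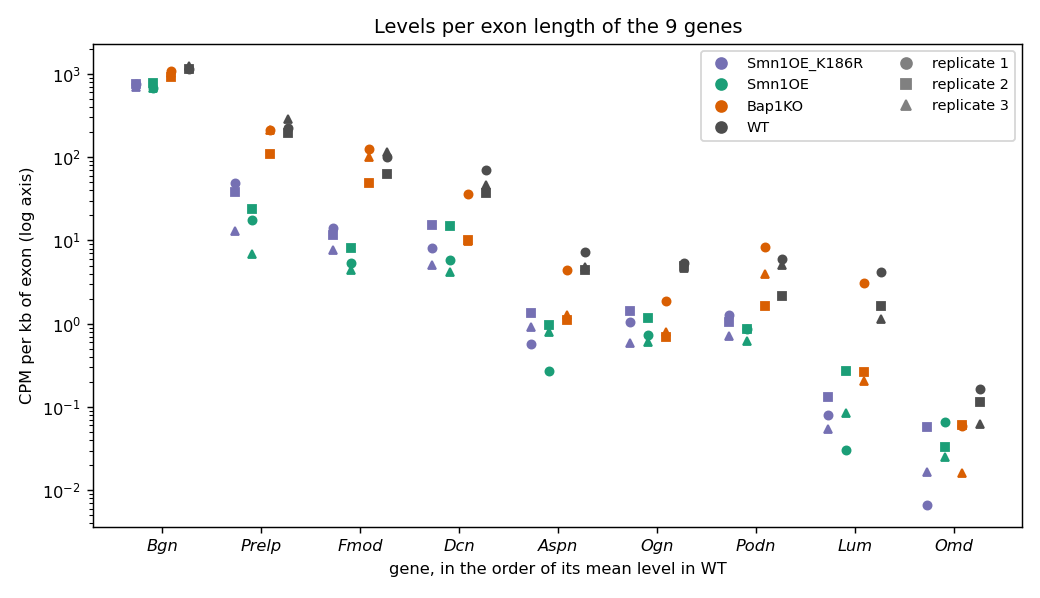
CPM per kilobase of exon (log axis) of the 9 SLRP genes in each of the 12 libraries, ordered by the mean in WT. Colours stand for groups and marker shapes for replicates. Bgn is the highest gene in all 12 libraries.

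The mix of the family differed more than its order. Bgn made up 93.0 ± 2.72% of the summed per-length level of the 9 genes in Smn1OE_K186R, 95.7 ± 1.81% in Smn1OE, 77.7 ± 5.58% in Bap1KO and 75.0 ± 3.22% in WT (SD, n = 3 each). Prelp made up 4.05 ± 2.05%, 2.13 ± 1.02%, 13.5 ± 2.92% and 14.8 ± 1.81% in the same order of groups. In raw abundance the 9 genes took 0.446 to 0.510% of counts in Smn1OE_K186R, 0.438 to 0.501% in Smn1OE, 0.605 to 0.795% in Bap1KO and 0.785 to 0.886% in WT. The replicates were also unequally steady. The biological coefficient of variation fitted by edgeR was 0.0888 for Bgn, below the median of 0.153 over all genes. It was 0.292 for Fmod, 0.333 for Ogn, 0.396 for Prelp, 0.408 for Podn, 0.462 for Aspn, 0.468 for Omd, 0.484 for Dcn and 0.773 for Lum.

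**Figure D2:**
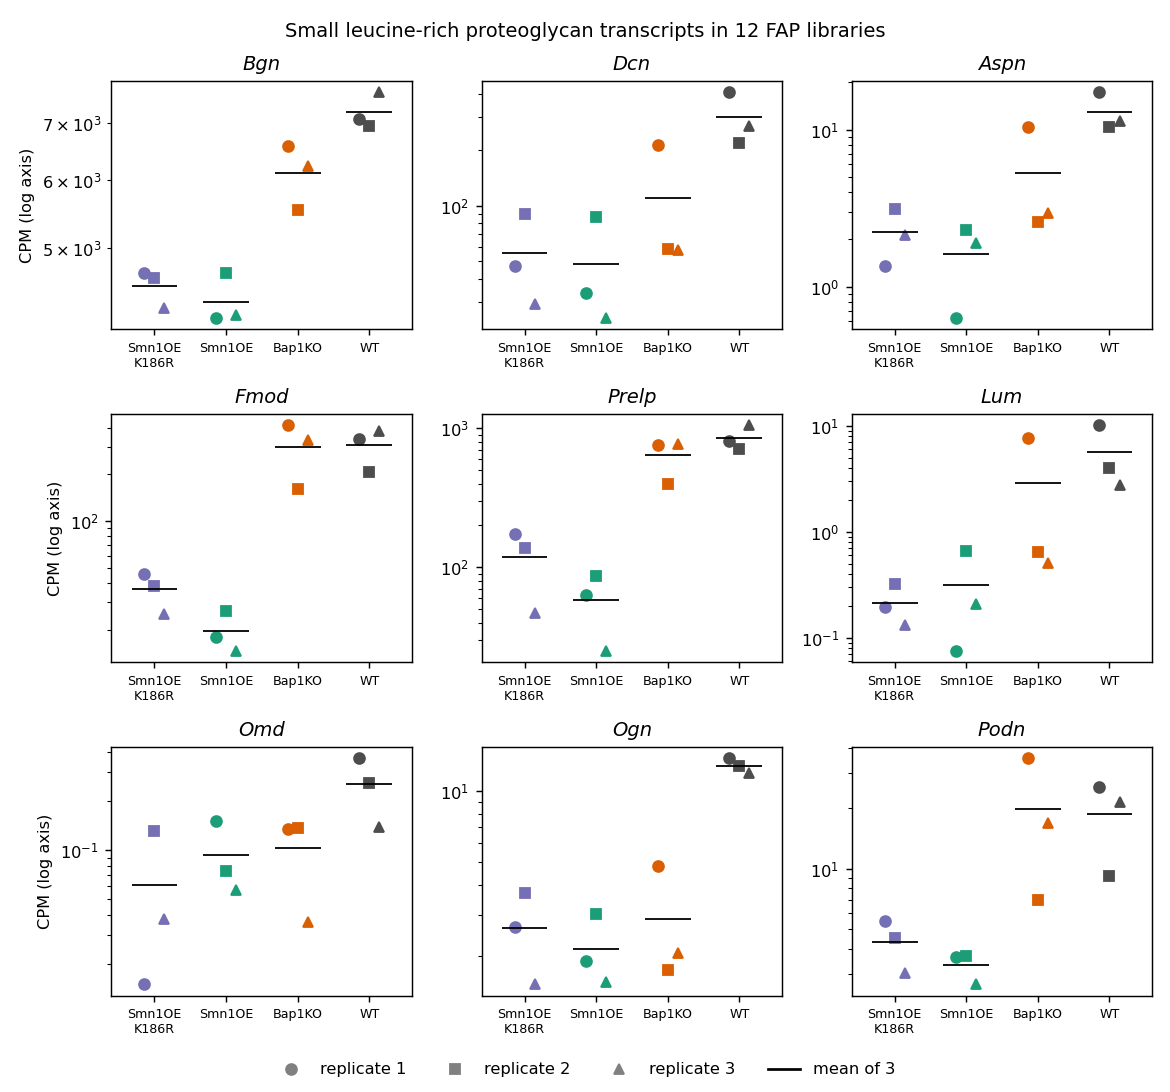
CPM (log axis, a separate scale per gene) of each SLRP gene by group, with 1 point per library and a line at the mean of 3. The 3 WT libraries of Ogn lie above all 9 others, and the 6 vector libraries of Fmod, Prelp and Podn lie below all Bap1KO and WT libraries.

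Loss of Bap1 was set against WT within the same media batches. Ogn fell in Bap1KO. Dcn, Lum and Aspn, like all members but Fmod and Podn, were lower in every batch, and they were called when media batch entered the fit. Fmod, Podn and Prelp differed from WT by less than their standard errors in the fit without a block. Of the 9 genes, 1 passed the test without a block across 16597 genes (Benjamini-Hochberg adjusted p under 0.05), and it was lower. Over all genes 9.72% were called, and 6.37% were called lower. The 3 Bap1KO libraries did not overlap the 3 WT libraries for 5 members, as for 32.3% of all genes tested.

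Osteoglycin, a keratan sulfate proteoglycan first isolated from bone, had 4.81, 1.75 and 2.07 CPM in Bap1KO, against 13.7, 12.8 and 11.9 CPM in WT. All 3 Bap1KO libraries lay below all 3 WT libraries, with replicate 1 the least low. Ogn was 4.42-fold lower (log2 -2.15, SE 0.40, adjusted p = 0.00734). It remained below 0.05 without each library in turn, at adjusted p 0.00311 to 0.0433. Of the 8 FAP markers Pdgfra, a receptor widely used to define these cells, was called too, at 2.69-fold lower in Bap1KO (log2 -1.43, SE 0.23, adjusted p = 0.00398), and its part in the Ogn difference was not tested.

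Dcn, which binds type I collagen and TGF-β, had 212, 58.5 and 57.4 CPM in Bap1KO, against 409, 218 and 271 CPM in WT. Every Bap1KO library was below every WT library, and replicate 1 was nearest to WT. The log2 fold change was -1.45 (SE 0.59, adjusted p = 0.141). Lum, which is needed for the regular collagen of the cornea, had 7.63, 0.640 and 0.508 CPM in Bap1KO and 10.1, 4.00 and 2.77 CPM in WT. Here replicate 1 of Bap1KO exceeded 2 of the 3 WT libraries, so the groups overlapped (log2 -0.94, SE 0.89, adjusted p = 0.549). Aspn, which binds collagen and TGF-β and has a run of aspartate residues, had 10.4, 2.59 and 2.96 CPM in Bap1KO, against 17.3, 10.4 and 11.3 CPM in WT. Replicate 1 of Bap1KO lay just below the lowest WT library, and the log2 fold change was -1.28 (SE 0.54, adjusted p = 0.152).

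The same Bap1KO replicate 1 was the highest of its group for Dcn, Bgn, Lum, Fmod, Ogn, Aspn and Podn. WT replicate 1, from the same batch, was also the highest WT library for Dcn, Lum, Ogn, Omd, Aspn and Podn. With media batch as a block, 6 of the 9 genes were lower, where 29.0% of all genes were called and 17.2% were called lower. Their blocked log2 fold changes were -1.69 for Dcn (adjusted p = 1.62e-05), -1.64 for Lum (0.00547), -1.52 for Aspn (0.000231), -0.45 for Prelp (0.0264) and -0.24 for Bgn (0.0169), besides Ogn. Without Bap1KO replicate 1 and with no block, Dcn, Lum and Aspn were called as well, with log2 fold changes of -2.36, -3.28 and -2.22 and adjusted p of 0.026, 0.0224 and 0.0179. With other single libraries left out and no block, their adjusted p reached 0.358, 0.942 and 0.384.

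**Figure D3:**
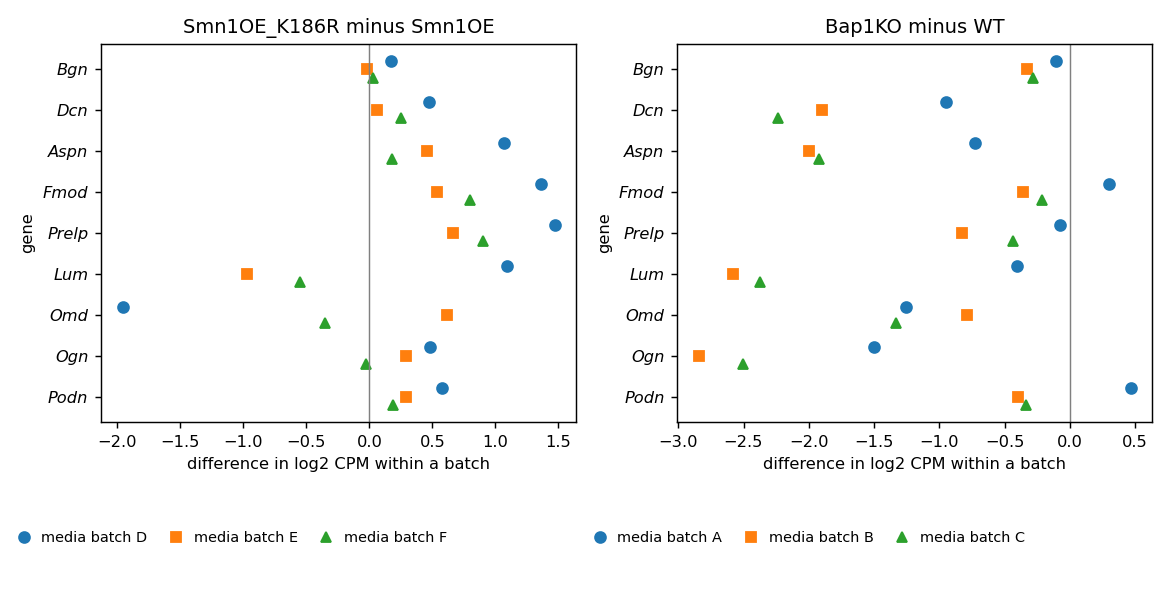
Difference in log2 CPM within each media batch (prior count 2) for the 9 SLRP genes, Smn1OE_K186R minus Smn1OE on the left and Bap1KO minus WT on the right. In the right panel all genes but Fmod and Podn are below 0 in 3 of 3 batches. In the left panel Fmod, Prelp, Dcn, Aspn and Podn are above 0 in 3 of 3.

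Biglycan, which binds collagen and can signal through Toll-like receptors when released, had 6589, 5539.5 and 6239 CPM in Bap1KO, against 7077, 6942 and 7601 CPM in WT. The groups did not overlap, yet the difference was small (1.18-fold lower, log2 -0.24, SE 0.09, adjusted p = 0.121). Prelp, a heparin-binding protein that anchors basement membranes to connective tissue, had 762, 398 and 775 CPM in Bap1KO and 805, 706 and 1047 CPM in WT. These ranges overlapped, with replicate 2 the lowest in both groups (log2 -0.40, SE 0.47, adjusted p = 0.636).

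Fibromodulin, a keratan sulfate proteoglycan of tendon and cartilage collagen, had 414, 162 and 331 CPM in Bap1KO and 336, 208 and 384 CPM in WT. The ranges overlapped throughout (log2 -0.03, SE 0.34, adjusted p = 0.971), and replicate 2 was again the lowest of each group. Podn, a collagen-binding member known to restrain smooth muscle cell growth, had 35.4, 6.98 and 17.0 CPM in Bap1KO and 25.6, 9.23 and 21.4 CPM in WT (log2 0.08, SE 0.48, adjusted p = 0.945). Omd, described in bone, had 9, 9 and 2 counts in Bap1KO and 24, 17 and 9 counts in WT. At this depth no difference was detectable for Omd (log2 -1.27, SE 0.68, adjusted p = 0.260).

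Ecm2, an SLRP-related matrix gene outside the 9, lies next to Aspn, followed by Omd and Ogn. It had 0.283, 0.107 and 0.0726 CPM in Bap1KO, against 1.25, 0.946 and 0.898 CPM in WT, and was called at 6.51-fold lower (log2 -2.70, SE 0.47, adjusted p = 0.00581). These 4 genes lie within Cenpp, a centromere protein gene read from the other strand, which had 2.05 to 3.08 CPM in Bap1KO and 3.03 to 4.79 CPM in WT (log2 -0.60, adjusted p = 0.407). Cenpp shares 7 exon bases with Aspn and none with Omd or Ogn, and the strand setting of the counting is not given in the sources used here. Beyond them, Nol8 had a log2 fold change of 0.29 (adjusted p = 0.0577). Ecm2 was low throughout, with at most 1.25 CPM in any library. Of the other SLRP-family genes listed, 6 of 10 were tested and Ecm2 was the 1 called. Over all genes 9.72% were called and 6.37% were called lower.

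Smn1OE cells, given 4-OHT and the SMN vector, were set against Bap1KO cells, given 4-OHT alone. The level of Bap1 itself was not matched, being higher in Smn1OE (log2 0.28, SE 0.07, adjusted p = 0.00924). Fmod, Prelp, Podn, Bgn, Lum and Aspn fell, and the calls of Lum and Aspn were lost without single libraries. Dcn, Ogn and Omd did not pass. In all, 6 of the 9 genes were called and all 6 were lower, where 33.5% of all genes were called and 17.7% were called lower. Of the 6 other SLRP-family genes tested, 1 was lower, and their median log2 fold change was -0.11, against -1.74 for the 9. All of those 6 but Tsku had at most 3.66 CPM in any library. The libraries of the groups did not overlap for 5 members, as for 48.6% of all genes. In the same comparison the sex of the cells and the media batches differed as given above. Fewer expressing cells cannot be told apart from less RNA per cell.

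Fmod had 17.9, 26.5 and 14.6 CPM in Smn1OE, against 414, 162 and 331 CPM in Bap1KO. The highest Smn1OE library was far below the lowest Bap1KO library. The fold change was 15.4-fold lower (log2 -3.94, SE 0.39, adjusted p = 0.000104). Its neighbour Prelp had 63.1, 86.6 and 25.0 CPM in Smn1OE, against 762, 398 and 775 CPM in Bap1KO, again without overlap. It was 11.1-fold lower (log2 -3.47, SE 0.52, adjusted p = 0.000829).

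Podn had 3.66, 3.68 and 2.67 CPM in Smn1OE, against 35.4, 6.98 and 17.0 CPM in Bap1KO (5.91-fold lower, log2 -2.56, SE 0.52, adjusted p = 0.00358). The groups did not overlap. Without Bap1KO replicate 1 the log2 fold change of Podn was -1.84 (adjusted p = 0.0129). Bgn had 4145, 4678 and 4177 CPM in Smn1OE, against 6589, 5539.5 and 6239 CPM in Bap1KO, and was 1.41-fold lower (log2 -0.50, SE 0.09, adjusted p = 0.00209). Bgn lies on the X chromosome, where the 527 tested genes had a median log2 fold change of 0.05, and the median over the other genes was -0.01.

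Lum had 0.0749, 0.656 and 0.208 CPM in Smn1OE, against 7.63, 0.640 and 0.508 CPM in Bap1KO. Replicate 2 of Smn1OE was above 2 Bap1KO libraries, and the difference rested on Bap1KO replicate 1 (log2 -3.21, SE 1.04, adjusted p = 0.0330). Aspn had 0.629, 2.28 and 1.89 CPM in Smn1OE, against 10.4, 2.59 and 2.96 CPM in Bap1KO (log2 -1.74, SE 0.57, adjusted p = 0.0340). Its groups did not overlap, by a narrow margin. Without Bap1KO replicate 1 the log2 fold change of Lum was -0.86 (adjusted p = 0.433) and that of Aspn -0.80 (adjusted p = 0.228). Without Smn1OE replicate 2 that of Lum was -4.41 (adjusted p = 0.0286). Without Smn1OE replicate 1 the adjusted p of Lum and Aspn were 0.106 and 0.108, and without Smn1OE replicate 3 they were 0.102 and 0.0697.

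Dcn had 33.8, 86.7 and 24.7 CPM in Smn1OE, against 212, 58.5 and 57.4 CPM in Bap1KO. The ranges overlapped, because Smn1OE replicate 2 exceeded 2 Bap1KO libraries (log2 -1.17, SE 0.59, adjusted p = 0.144). Without Smn1OE replicate 2 the log2 fold change of Dcn was -1.90 (adjusted p = 0.0392), and without Bap1KO replicate 1 it was -0.26 (adjusted p = 0.747). Ogn had 1.90, 3.01 and 1.55 CPM in Smn1OE and 4.81, 1.75 and 2.07 CPM in Bap1KO, overlapping (log2 -0.42, SE 0.39, adjusted p = 0.441). Omd had 10, 5 and 3 counts in Smn1OE, against 9, 9 and 2 in Bap1KO (log2 -0.13, SE 0.74, adjusted p = 0.908).

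**Figure D4:**
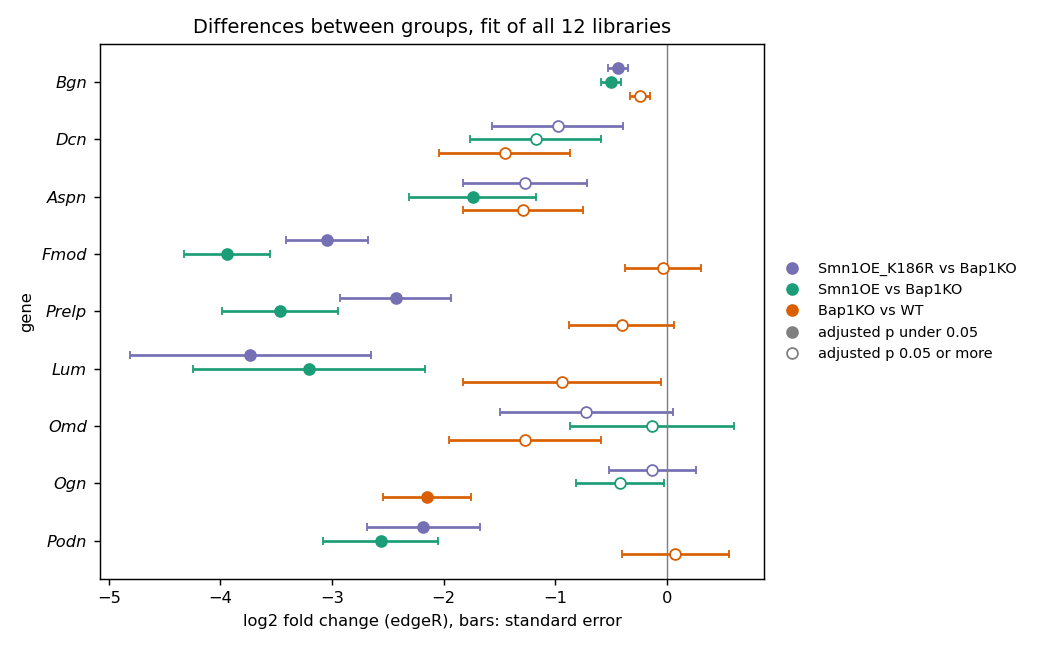
Log2 fold change with its standard error from edgeR for the 9 SLRP genes in 3 comparisons. Filled points have an adjusted p under 0.05. Fmod, Prelp and Podn are between -0.40 and 0.08 in Bap1KO against WT and between -3.94 and -2.18 in the vector groups against Bap1KO, whereas Ogn is at -2.15 in the first and at -0.42 and -0.13 in the others.

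With the K186R form, Fmod, Prelp, Podn, Bgn and Lum fell relative to Bap1KO. These were 5 of the 9 genes, all lower, where 32.6% of all genes were called and 16.5% were called lower. Of the 6 other SLRP-family genes tested, 0 were called, at a median log2 fold change of -0.21. The libraries did not overlap for 5 members, as for 43.7% of all genes. This comparison shares its Bap1KO libraries with the preceding one, and Bap1 had a log2 fold change of 0.17 (SE 0.07, adjusted p = 0.0810). Fmod had 46.0, 38.4 and 25.3 CPM in Smn1OE_K186R, against 414, 162 and 331 CPM in Bap1KO (8.26-fold lower, log2 -3.05, SE 0.37, adjusted p = 0.000367). Prelp had 175, 137 and 46.8 CPM in Smn1OE_K186R, against 762, 398 and 775 CPM in Bap1KO (5.39-fold lower, log2 -2.43, SE 0.49, adjusted p = 0.00407). Neither gene overlapped between the groups, and replicate 3 of Smn1OE_K186R was the lowest for both.

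Podn had 5.47, 4.51 and 3.05 CPM in Smn1OE_K186R, against 35.4, 6.98 and 17.0 CPM in Bap1KO (4.54-fold lower, log2 -2.18, SE 0.51, adjusted p = 0.00765). Bgn had 4673, 4621 and 4256 CPM in Smn1OE_K186R, against 6589, 5539.5 and 6239 CPM in Bap1KO (1.36-fold lower, log2 -0.44, SE 0.09, adjusted p = 0.00435). Both genes were without overlap. Without Bap1KO replicate 1 the log2 fold change of Podn was -1.47 (adjusted p = 0.0326). Lum had 0.195, 0.3199 and 0.132 CPM in Smn1OE_K186R, against 7.63, 0.640 and 0.508 CPM in Bap1KO (log2 -3.73, SE 1.08, adjusted p = 0.0208). The groups did not overlap, but without Bap1KO replicate 1 the log2 fold change of Lum was -1.39 (adjusted p = 0.212). Its adjusted p was 0.0590 without Smn1OE_K186R replicate 1 and 0.0632 without Smn1OE_K186R replicate 3.

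Aspn had 1.35, 3.14 and 2.15 CPM in Smn1OE_K186R, against 10.4, 2.59 and 2.96 CPM in Bap1KO (log2 -1.27, SE 0.55, adjusted p = 0.0979). Its log2 fold change was -1.60 without Bap1KO replicate 2 (adjusted p = 0.0450) and -0.34 without Bap1KO replicate 1 (adjusted p = 0.626). Dcn had 46.9, 90.1 and 29.3 CPM in Smn1OE_K186R, against 212, 58.5 and 57.4 CPM in Bap1KO (log2 -0.98, SE 0.59, adjusted p = 0.219). Ogn had 2.66, 3.69 and 1.53 CPM in Smn1OE_K186R, against 4.81, 1.75 and 2.07 CPM in Bap1KO (log2 -0.13, SE 0.39, adjusted p = 0.826). These 3 genes overlapped between the groups. Omd had 1, 9 and 2 counts in Smn1OE_K186R, against 9, 9 and 2 in Bap1KO (log2 -0.72, SE 0.77, adjusted p = 0.499).

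The vector groups were also set against WT, from which they differ by 4-OHT, the labelled deletion, vector, media batch and sex of the cells. Of the 9 genes, 9 were called lower in Smn1OE_K186R, where 50.5% of all genes were called and 26.5% lower. In Smn1OE 8 were called lower, where 50.4% of all genes were called and 26.6% lower. Omd was the exception in Smn1OE (adjusted p = 0.109). Its call in Smn1OE_K186R (adjusted p = 0.0370) was lost without WT replicate 1 (0.132), WT replicate 2 (0.0741), Smn1OE_K186R replicate 1 (0.121) or Smn1OE_K186R replicate 3 (0.109). Its log2 fold change there was -1.99, or -3.23 without Smn1OE_K186R replicate 2. Dcn was 5.39-fold lower in Smn1OE_K186R and 6.18-fold lower in Smn1OE, at adjusted p of 0.0059 and 0.00394, and its log2 fold change in Smn1OE was -2.63, or -3.36 without Smn1OE replicate 2. Ogn was 4.84-fold and 5.90-fold lower in these 2 groups, at 0.000656 and 0.000345. With each of the 6 libraries of either comparison left out in turn, all members but Omd kept an adjusted p of at most 0.0278.

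The direct comparison of the K186R form with unchanged SMN shared media batches D, E and F. No gene of the 16597 was called by edgeR (0%), none by DESeq2, and 388 genes (2.34%) had an unadjusted p under 0.05 by edgeR. With media batch as a block, Fmod and Prelp were higher in Smn1OE_K186R, among 48 genes called in all, 0.289% of those tested, and all 48 were higher. Fmod had 46.0, 38.4 and 25.3 CPM in Smn1OE_K186R, against 17.9, 26.5 and 14.6 CPM in Smn1OE. The ranges overlapped narrowly, while within batches the difference in log2 CPM was 1.36, 0.53 and 0.80. The blocked log2 fold change was 0.90 (SE 0.14, adjusted p = 0.0229).

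Prelp had 175, 137 and 46.8 CPM in Smn1OE_K186R, against 63.1, 86.6 and 25.0 CPM in Smn1OE. The ranges overlapped, replicate 3 was the lowest of both groups, and within batches the difference was 1.47, 0.66 and 0.90. The blocked log2 fold change was 1.01 (SE 0.14, adjusted p = 0.0112). Without batch F (replicate 3) both calls were lost, with blocked log2 fold changes of 0.94 for Fmod (adjusted p = 0.0708) and 1.07 for Prelp (adjusted p = 0.0514), as large as with all 3 batches. Without batch D they were 0.65 (0.03) and 0.77 (0.0195), and without batch E 1.10 (0.00411) and 1.21 (0.000792). In the fit without a block the log2 fold changes were 0.89 (SE 0.35) and 1.04 (SE 0.48), both with an adjusted p of 0.997.

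The other 7 genes were not called with or without the block. Bgn differed by a log2 fold change of 0.06 (SE 0.09), Podn by 0.38 (SE 0.51), Aspn by 0.47 (SE 0.57) and Ogn by 0.29 (SE 0.39) in the fit without a block. Dcn differed by 0.20 (SE 0.58), Lum by -0.53 (SE 1.17) and Omd by -0.59 (SE 0.78). A missed threshold does not show that the 2 SMN forms act alike on these genes.

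Fmod and Prelp are neighbours on chromosome 1, in the order Atp2b4, Optc, Prelp, Fmod and Btg2, per the GRCm38 annotation. Optc, the SLRP gene opticin, had 1.42 to 2.595 CPM in Smn1OE and 2.32 to 2.61 CPM in Bap1KO libraries (log2 -0.16, adjusted p = 0.621). In Smn1OE_K186R against Bap1KO it was -0.39 (adjusted p = 0.227). Atp2b4, a plasma membrane calcium pump, was lower in Smn1OE than in Bap1KO (log2 -1.69, adjusted p = 0.000896), as was Btg2, an antiproliferative gene (log2 -0.97, adjusted p = 0.00167). Prelp shares 350 exon bases with the antisense gene Gm15851, which had 14 counts over all libraries. Dcn and Lum are neighbours on chromosome 10, and the adjoining SLRP genes Kera and Epyc were below 0.04 CPM on average in every group.

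As a description over 12 libraries that fall into 2 sets with different batches, the log2 CPM of every pair of members had a positive Pearson r. It was highest for Fmod and Prelp, at 0.98, and lowest for Fmod and Omd, at 0.43. Lum and Aspn had 0.95, Dcn and Ogn 0.94, and Fmod and Ogn 0.65. By the same measure over all tested genes, Fmod was most like Pccb, Rnase4 and Mapk11 (r of 0.99 each) and Prelp most like Sod3, Tnfrsf1b and Il6 (r of 1.00, 0.99 and 0.99). Bgn was most like Pcca, Col16a1 and Arsa (1.00, 0.99 and 0.99), and Podn most like Lpl, Stat2 and Dhx58 (0.99, 0.98 and 0.98). Dcn was most like Erap1, Incenp and Cenpi (0.98 each), Lum most like Cenpq, Cenpn and Mcm8 (0.98, 0.98 and 0.97), and Ogn most like Dab2, Cend1 and Hacd4 (0.98, 0.98 and 0.97). Aspn was most like Nadk2, Ptn and Dubr (0.97 each), and Omd most like Mboat1, Zfp786 and Gm29417 (0.93, 0.87 and 0.87).

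The genes that SLRPs work with were described from lists. Their counts stand beside 32.6% of all genes called and 16.5% called lower in Smn1OE_K186R against Bap1KO, 33.5% and 17.7% in Smn1OE against Bap1KO, and 9.72% and 6.37% in Bap1KO against WT. Of 15 collagens, their cross-linking enzymes and related partners tested, 12 were lower and 1 higher in Smn1OE_K186R against Bap1KO, and 13 were lower and 1 higher in Smn1OE against Bap1KO. None was called in Bap1KO against WT. The median log2 fold changes were -0.91, -1.24 and -0.22 in these 3 comparisons, beside medians of -0.01, -0.01 and 0.00 over all genes. Col1a1, the main fibrillar collagen chain, had a log2 fold change of -1.57 in Smn1OE against Bap1KO (SE 0.22, adjusted p = 0.000645). Loxl1, a cross-linking oxidase, had -0.86 (SE 0.10, adjusted p = 0.000265), and Col5a1, which nucleates fibrils, had -1.44 (SE 0.21, adjusted p = 0.000714).

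Of 7 genes for the linker that starts a sugar chain, 2 were lower in Smn1OE_K186R (16.5% of all genes) and 4 in Smn1OE (17.7%), each against Bap1KO, and 1 in Bap1KO against WT (6.37%). Xylt2, a xylosyltransferase that adds the first sugar, had a log2 fold change of -0.38 in Smn1OE against Bap1KO (SE 0.08, adjusted p = 0.00486). Of 15 tested genes for chondroitin and dermatan sulfate, 5 were lower in each vector group, beside the same shares of all genes, and 1 in Bap1KO against WT, a share near the 6.37% over all genes. It was the sulfotransferase Chst15 (log2 -0.77, SE 0.16, adjusted p = 0.0135). Csgalnact1, which commits a chain to chondroitin sulfate, had -1.74 in Smn1OE against Bap1KO (SE 0.30, adjusted p = 0.00157). Of 8 keratan sulfate genes, 1 was lower in Smn1OE_K186R, and 2 were lower and 1 higher in Smn1OE. These counts are near or below the 32.6% and 33.5% called over all genes. In Bap1KO against WT 1 was lower, B4galt4 (log2 -0.50, SE 0.11, adjusted p = 0.0203), where 6.37% of all genes were called lower.

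Of 13 genes for proteases and their enhancers that process or cleave SLRPs, 3 were higher and 5 lower in Smn1OE_K186R, and 3 higher and 6 lower in Smn1OE, each against Bap1KO. Over all genes 32.6% and 33.5% were called in these comparisons. Tll1, a tolloid protease of the family that trims SLRP precursors, was higher in Smn1OE (log2 1.87, SE 0.32, adjusted p = 0.00157). Pcolce, an enhancer of procollagen processing, was lower (log2 -1.13, SE 0.12, adjusted p = 0.000158). In Bap1KO against WT, Pcolce2 was higher (log2 1.05, SE 0.12, adjusted p = 0.00103) and Adamts9 lower (log2 -0.95, SE 0.22, adjusted p = 0.0198).

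Among 15 tested growth factors and receptors that bind or are bound by SLRPs, 4 were higher and 1 lower in Smn1OE_K186R, and 3 higher and 1 lower in Smn1OE, each against Bap1KO. These counts are near or below the 32.6% and 33.5% called over all genes. In Bap1KO against WT, Tgfbr1, a TGF-β receptor, was lower (log2 -0.88, SE 0.18, adjusted p = 0.0119), as was Tlr2, a receptor for released biglycan (log2 -1.17, SE 0.27, adjusted p = 0.0205). Bmp2 was higher in Smn1OE than in Bap1KO (log2 3.90, SE 0.73, adjusted p = 0.00253) and Bmp4 was lower (log2 -2.88, SE 0.63, adjusted p = 0.00527). Bmp2 was near the floor, with a mean of 0.0161 CPM in Bap1KO and 0.268 CPM in Smn1OE. It had at most 0.363 CPM in any library, so its fold change rests on very few reads.

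**Figure D5:**
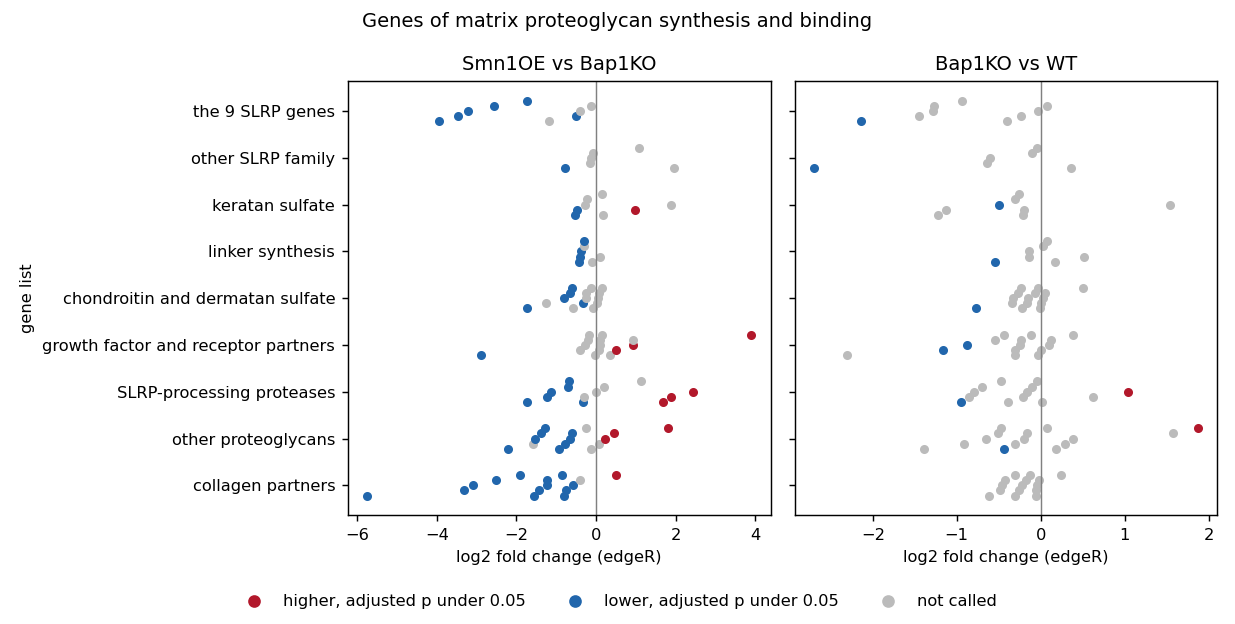
Log2 fold changes of the genes tested in each list, 1 point per gene, in Smn1OE against Bap1KO (left) and in Bap1KO against WT (right). Blue points are lower and red points higher at an adjusted p under 0.05. In the left panel 13 of 15 collagen partners and 6 of 9 SLRP genes are blue, and in the right panel 0 and 1 are.

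Cell type markers were compared in the same libraries. Their counts stand beside 32.6% of all genes called and 16.5% called lower in Smn1OE_K186R against Bap1KO. In Smn1OE against Bap1KO these shares were 33.5% and 17.7%. Of the 8 FAP markers, 4 were lower and 1 higher in Smn1OE_K186R, and 5 lower and 1 higher in Smn1OE, each against Bap1KO. Cd248, Ly6a and Pi16 were lower, with log2 fold changes of -1.44, -1.38 and -3.55 in Smn1OE, whereas Cd34 was higher, at 1.37 in Smn1OE_K186R (adjusted p = 0.00904) and 1.47 in Smn1OE (adjusted p = 0.00612). The 6 chondrocyte markers summed to 24.9 to 29.3 CPM in Smn1OE_K186R, 23.7 to 26.4 in Smn1OE and 65.0 to 90.4 in Bap1KO, without overlap. Of the 3 tested, 2 were lower in each vector group, Comp and Col2a1. The 6 tenocyte markers summed to 105 to 171 CPM in Smn1OE_K186R and 102 to 136 in Smn1OE, overlapping the 120 to 296 in Bap1KO. Egr1, which was not called in either vector group, made up most of each tenocyte sum. Of the 5 tested, 2 were lower in each vector group, Tnmd and Thbs4.

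Osteoblast markers summed to 32.8 to 47.3 CPM in Smn1OE_K186R, 31.0 to 36.9 in Smn1OE and 40.3 to 55.1 in Bap1KO. Runx2, which was not called in either vector group, made up most of each osteoblast sum. Of the 4 tested, 3 were lower in Smn1OE_K186R and 2 in Smn1OE, with Sp7 and Alpl lower in both. For this and the following lists, 32.6% and 33.5% of all genes were called in these 2 comparisons, and 16.5% and 17.7% were called lower. Adipocyte markers summed to 38.8 to 52.6 CPM in Smn1OE_K186R, 43.3 to 57.6 in Smn1OE and 55.6 to 74.0 in Bap1KO, and 2 of the 5 tested, Adipoq and Cebpa, were lower in both vector groups. Pericyte markers summed to 112 to 208 CPM in Smn1OE_K186R, 121 to 226 in Smn1OE and 107 to 144 in Bap1KO. Of these 6, Rgs5 and Mcam were higher in both vector groups, with log2 fold changes of 1.65 and 1.46 in Smn1OE. Macrophage markers summed to 18.2 to 23.9 CPM in Smn1OE_K186R, 18.2 to 23.2 in Smn1OE and 20.7 to 29.3 in Bap1KO. Csf1r, Cd68 and Cd14 made up nearly all of each macrophage sum, and Adgre1 and C1qa had at most 0.0155 CPM in any library. Of the 4 tested, Cd68 and Ptprc were higher and Csf1r lower in both vector groups, though Ptprc had at most 0.322 CPM in any library. Of 4 endothelial markers tested 1, Tek, was lower in both vector groups, and of 2 myogenic markers 0 were called. In Bap1KO against WT, besides Pdgfra, the markers Scx and Bglap were higher and Sp7, Tek, Cd14 and Abcc9 lower, where 9.72% of all genes were called. Bglap was near the floor, at 0.402, 0.198 and 0.345 CPM in Bap1KO, against 0.0152, 0 and 0 CPM in WT. The part of these shifts in the SLRP differences was not tested.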

How the data were processed

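The deposited files hold raw read counts per Ensembl gene, 1 file per library, made by the authors. The submitters' processing notes list STAR 2.6.1 and HTSeq 0.9.1 beside cutadapt 1.4.2, CASAVA 1.8.2, DESeq2 and the GRCm39 build. Strand setting and annotation release are not given in the sources used here. The 5 closing rows that name no gene (11.1 to 14.6% of records) were left out. Symbols (55154 IDs), exon lengths and gene order came from GENCODE M21, and upstream sequences from RefSeq, both on GRCm38. No position was moved between builds, and the motifs were chosen after the sequences were seen.

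Tests used edgeR 4.0.16 (R 4.3.3) on the deposited counts: TMM scaling, filterByExpr with a minimum count of 10 (16597 genes, 9 of 9 members), a quasi-likelihood fit of 4 groups over 12 libraries, 2-sided, Benjamini-Hochberg adjustment over all genes, called under 0.05. Standard errors were derived from the F statistic, and the script was tested on simulated data. An exact permutation test of 3 against 3 cannot go below 0.1 and was not used. Omd, with 1 to 24 counts per library, lay at the edge of the filter. The labels pair libraries by media batch. Deviations from group means correlated across genes at 0.31, 0.43 and 0.24 in batches A, B and C. In D, E and F they correlated at 0.38, 0.30 and 0.43, and between batches at -0.35 to 0.05. Deviations within a group cancel for each gene, so the values between batches are not independent of those within batches. Alternatives were media batch or replicate number as a block, media batch as a random effect (limma 3.58.1), DESeq2 1.42.0, other scaling, no filter, 6 libraries only, and each library left out. Members and lists were chosen with earlier results of these data known. Named genes are the members, up to 3 called genes of a list with the smallest adjusted p, neighbours, and the 3 genes most like each member.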

Additional observations from a re-analysis of the deposited data

How the results depend on the processing

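Over 54 results and 730 alternative values, 654 kept their direction and side of the threshold. No alternative scaling (DESeq2 size factors, or library totals alone) changed a call or the direction of a called member. In Bap1KO against WT the number of members called was 1, and it was 3 with no filter on low counts, 6 with media batch as a replicate block, 1 to 4 without each library in turn, and 7, 5 and 4 with the block and without replicate number 1, 2 and 3 (chosen after seeing the data). All genes called there numbered 1614, and were 2560 by DESeq2, 4814 with the block and 535 to 1457 without each library. In Smn1OE_K186R against Smn1OE no member was called, 2 were with the block, and 0 to 2 with the block and without each replicate number, among 3 to 71 genes. Against Bap1KO, 4 to 7 members were called in Smn1OE and 4 to 6 in Smn1OE_K186R without each library. All genes called were 3512 without Bap1KO replicate 1 and 3524 without Smn1OE replicate 3 in Smn1OE, against 5567 in all libraries. In Smn1OE_K186R they were 3462 in the 6 libraries compared and 3385 without Bap1KO replicate 1, against 5416. Blocking by replicate number ended the calls of Lum (adjusted p = 0.0721) and Aspn (0.0725) in Smn1OE against Bap1KO. As a random effect, media batch ended that of Lum (0.12, and 0.115 in Smn1OE_K186R). In the 6 libraries compared, both calls ended in Smn1OE (0.076 each). With no filter, Dcn was called in Smn1OE (0.00598) and Smn1OE_K186R (0.0244) against Bap1KO.

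Directions turned only for differences that were not called. Podn in Bap1KO against WT was -0.074 with the block, -0.64 to 0.48 without each library, and -0.36 with the block and without replicate number 1. Fmod there was -0.32 to 0.27 without each library, and 0.045 with the block and without replicate number 2. Ogn ranged from -0.74 to 0.18 and Omd from -0.64 to 0.11 in Smn1OE against Bap1KO, and Ogn from -0.46 to 0.45 in Smn1OE_K186R against Bap1KO. In Smn1OE_K186R against Smn1OE, Dcn ranged from -0.34 to 0.92, Lum from -1.003 to 0.68 and Ogn from -0.042 to 0.61, and with the block Lum was 0.32 without replicate number 2 and Bgn -0.00497 without replicate number 1. The cause was not tested. Omd had 1 to 24 counts per library, and Lum 5 to 44 in the vector libraries.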

Other observations

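Other proteoglycans of the matrix and cell surface were listed beside the SLRPs. Of 15 tested, 2 were higher and 6 lower in Smn1OE_K186R against Bap1KO, and 3 higher and 8 lower in Smn1OE against Bap1KO, with median log2 fold changes of -0.46 and -0.67. Over all genes 32.6% were called and 16.5% called lower in Smn1OE_K186R, and 33.5% and 17.7% in Smn1OE. Prg4, the lubricating proteoglycan lubricin, had -2.22 in Smn1OE (SE 0.32, adjusted p = 0.00071), and Vcan, the large matrix proteoglycan versican, had -1.40 (SE 0.25, adjusted p = 0.00193). Sdc1, a syndecan of the cell surface, had -0.80 in Smn1OE_K186R (SE 0.14, adjusted p = 0.00196) and -0.94 in Smn1OE (SE 0.14, adjusted p = 0.000817), each against Bap1KO. In Bap1KO against WT, 1 gene was higher and 1 lower, where 9.72% of all genes were called and 6.37% were called lower. Spock2, a testican, had 1.88 (SE 0.18, adjusted p = 0.000899) and Gpc4, a glypican, had -0.43 (SE 0.12, adjusted p = 0.0361).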
